A study of Homo sapiens with 12 samples.

Results

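Expression of 9 genes for checkpoint and costimulatory ligands was examined across sublines of the human mast cell leukaemia line HMC-1. The genes were chosen by symbol, as CD274, PDCD1LG2, CD80, CD86, ICOSLG, CD276, LGALS9, PVR and CD47, and make up 9 of the 58381 genes in the deposited tables. HMC-1.1 cells carry V560G-KIT and HMC-1.2 cells carry both V560G-KIT and D816V-KIT. HMC-1.3 cells were made from HMC-1.2 by reverting V560G with CRISPR/Cas9 and carry D816V-KIT alone. Polyadenylated RNA was sequenced from 3 libraries of each of 4 groups, the sublines HMC-1.1 and HMC-1.2 together with clones 1 and 2 of HMC-1.3. Each HMC-1.3 group is a single clone, so that an effect of the edit and a property of that clone cannot be told apart within it. HMC-1.1 is a separate subline, so KIT genotype and other differences between sublines cannot be told apart in comparisons with it. The libraries came from wells plated in triplicate, and p-values therefore measure the spread between such wells.

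T cells need a signal through costimulatory receptors in addition to the antigen receptor, and inhibitory receptors, known as checkpoints, hold them back. Cells that meet T cells can supply both kinds of signal. PD-L1 and PD-L2, encoded by CD274 and PDCD1LG2, bind the inhibitory receptor PD-1. B7-1 and B7-2, encoded by CD80 and CD86, bind the costimulatory receptor CD28 and its inhibitory counterpart CTLA-4. ICOSLG is the ligand of the costimulator ICOS, and CD276 (B7-H3) is a B7 family protein. LGALS9 encodes galectin-9, a lectin that binds TIM-3 among other partners, PVR (CD155) is bound by TIGIT, CD96 and DNAM-1, and CD47 signals to SIRPα on phagocytes that its bearer should not be engulfed. Mast cells are tissue immune cells in which several of these ligands can be expressed.

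CD274 and PDCD1LG2 lie next to each other on the short arm of chromosome 9 (chr9:5450503-5470566 and chr9:5510531-5571282, plus strand, GRCh38), 40 kb apart. Chromosome 3 holds CD80 (chr3:119524293-119559614), CD86 (chr3:122055362-122121139) and CD47 (chr3:108043091-108091862), with CD80 and CD86 2.5 Mb apart. CD276 is at chr15:73683966-73714514, ICOSLG at chr21:44215382-44241446, LGALS9 at chr17:27629798-27649560 and PVR at chr19:44643798-44666162. All 9 are protein coding genes of Gencode 44.

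RefSeq promoter windows of GRCh38.p14 were held for 8 of the 9 genes, in 10 windows, and the 250 bases before each start were searched on both strands. The promoters of CD274 and CD80 are shown because these low-abundance ligands had the widest differences between groups. Only bases in no exon of Gencode 44 are printed. Capitals mark an interferon-stimulated response element (GAAA, any 2 bases, GAAA) and a STAT site (TTCNNNGAA), and the CD80 stretch held neither.
CD274 promoter, chr9:5450292-5450502, plus strand: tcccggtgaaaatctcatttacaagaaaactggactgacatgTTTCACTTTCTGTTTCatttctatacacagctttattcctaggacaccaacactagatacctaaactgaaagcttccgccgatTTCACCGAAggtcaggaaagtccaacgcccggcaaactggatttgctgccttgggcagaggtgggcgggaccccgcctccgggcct
CD80 promoter, chr3:119559615-119559864, minus strand: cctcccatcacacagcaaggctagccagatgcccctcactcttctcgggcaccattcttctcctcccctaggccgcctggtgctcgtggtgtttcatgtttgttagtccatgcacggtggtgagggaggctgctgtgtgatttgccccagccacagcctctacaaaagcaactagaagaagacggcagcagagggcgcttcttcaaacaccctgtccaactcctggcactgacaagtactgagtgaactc

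In CD274, 2 matches to the response element overlapped, at bases -208 to -199 and -202 to -193 from the RefSeq start, and the STAT site lay at -125 to -117. Among all 35116 windows, 3.02% held the response element and 6.57% the STAT site, and no other member's window held either. The NF-kB core GGGNNNTCC was found in the windows of CD276 and in 1 of those of CD86, and in 18.4% of all windows. An E-box (CACGTG, 6.34% of all windows) and an AP-1 site (TGANTCA, 6.57%) were in no member's window. These matches describe letters only, and binding of a factor was not measured.

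The 12 libraries held between 29225900 and 43181402 counts. The mast cell list was measured in full, with all 12 of its genes above the low-count filter and a summed level of 1860 to 2550 FPKM, highest in HMC-1.2. The higher total there followed mainly TPSAB1, at 592 FPKM against 29.4 to 44.2 in the other groups. TPSB2, HDC, ENPP3 and MS4A2 were also highest in HMC-1.2, but KIT, CPA3, GATA2, MITF and SIGLEC6 were lowest there. FCER1A and MS4A2 had few counts, with 4 to 6 and 6 to 10 per HMC-1.1 library. FPKM are counts per transcript length and library size, which allow levels of different genes to be compared. CD3D, CD3E, CD3G, CD8A, MS4A1, FCGR3A and CLEC9A had at most 3 counts in every library, and the summed level of the monocyte, macrophage and dendritic cell list, 15.5 to 22.3 FPKM, was carried by ITGAX, named after its value was seen. KIT, the edited gene, averaged 356 to 450 FPKM over the groups; its genotype was not read from these tables. In bulk RNA, fewer cells of a type and less RNA per cell cannot be told apart.

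The 9 ligands differed widely in level. CD47, LGALS9, CD276 and PVR were abundant, with group means of 240 to 273, 80.5 to 231, 40.1 to 45.1 and 25 to 27.9 FPKM, respectively. ICOSLG followed at 3.51 to 9.93 FPKM, CD80 at 0.48 to 4.36 and CD274 at 0.1 to 0.93. CD86 averaged at most 0.0667 FPKM and PDCD1LG2 was at or near 0 in every group. The low-count filter kept 7 of the 9 ligands for testing, all but PDCD1LG2 and CD86. CD274 passed it only through the groups where it was higher.

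Differences were tested with edgeR's quasi-likelihood test over 15944 genes, and calls required a fold change over 1.5 together with an adjusted p under 0.05. CD274 was put in the list because its rise was known, so its values are described without a test in every comparison, and counts of ligands are given over the other 6 tested ones. In clone 1 against HMC-1.2, 3 of these 6 were called, CD80 and LGALS9 higher and ICOSLG lower, where 20.0% of all tested genes were called (11.8% higher and 8.18% lower). In clone 2 against HMC-1.2, 2 were called, CD80 higher and ICOSLG lower, against 16.5% of all genes (7.98% higher and 8.51% lower). For HMC-1.1 cells set against HMC-1.2 cells, CD80, LGALS9 and ICOSLG were called in the same directions as in clone 1, 3 of 6 against 17.6% of all genes (10.1% higher and 7.52% lower). These 3 comparisons share the HMC-1.2 libraries. By adjusted p alone, 5, 5 and 6 of the 6 passed, where 59.4%, 48.5% and 53.7% of all genes did.

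**Figure D1:**
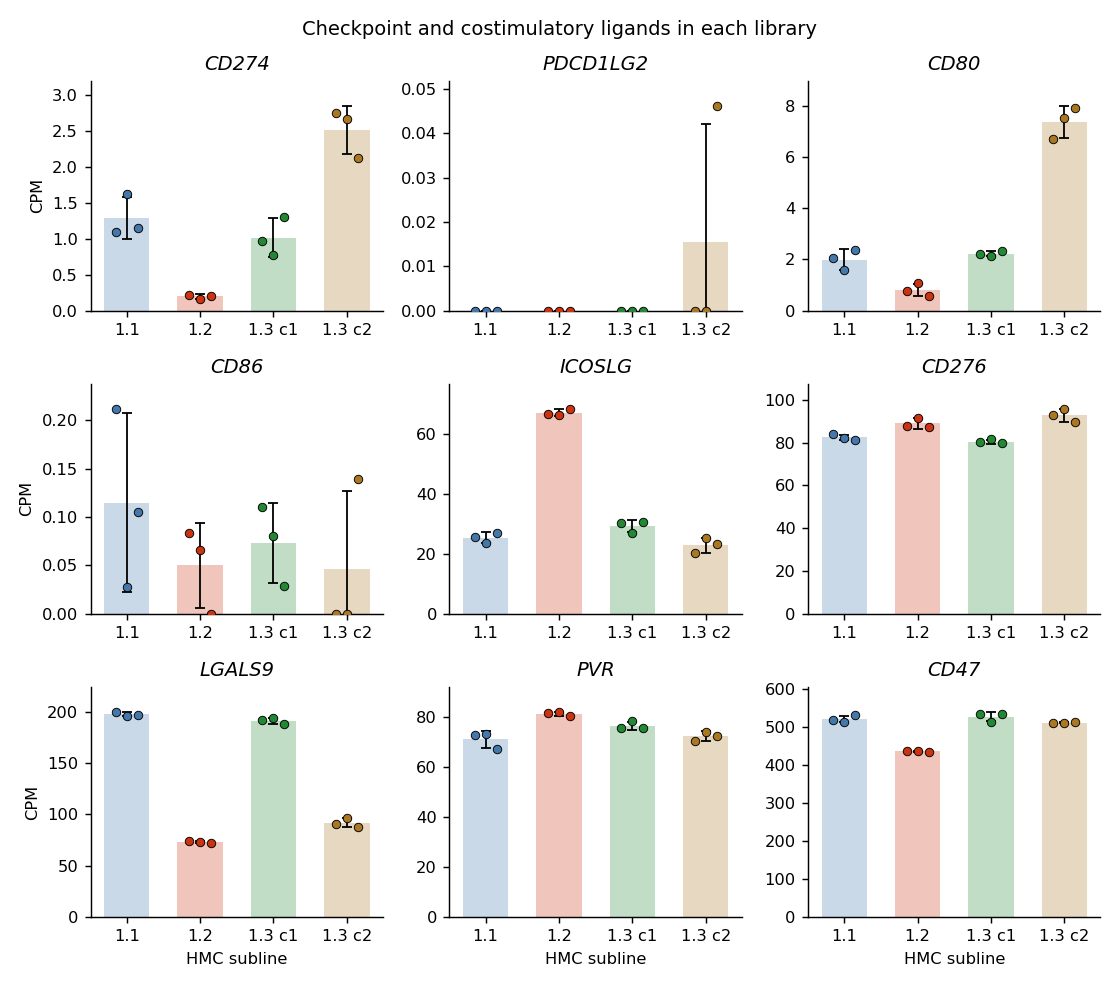
Expression of the 9 ligands in each library, in library-size scaled counts (CPM) on linear axes from 0 with a separate scale for each gene. Points are libraries, bars are means and error bars are SD (n = 3) for the sublines HMC-1.1 and HMC-1.2 and for clones 1 (c1) and 2 (c2) of HMC-1.3; HMC-1.2 has the lowest CD274, CD80, LGALS9 and CD47 and the highest ICOSLG, and clone 2 the highest CD274 and CD80.

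CD274, the gene for PD-L1, was near the limit of detection in HMC-1.2, with 8, 5 and 6 counts in the 3 libraries. HMC-1.1 had 41, 59 and 44 counts, clone 1 had 35, 29 and 46, and clone 2 had 94, 104 and 92. Every library of the other groups was thus above every HMC-1.2 library, and the clone 2 libraries were above all others. Scaled to library size, HMC-1.2 cells averaged 0.198 ± 0.0301 CPM, clone 1 averaged 1.02 ± 0.27, HMC-1.1 cells 1.29 ± 0.292 and clone 2 cells 2.51 ± 0.337 (SD, n = 3). The log2 fold change against HMC-1.2 was 2.32 (SE 0.33) for clone 1, 3.63 (SE 0.30) for clone 2, and 2.67 (SE 0.32) for HMC-1.1 cells. Even the highest group remained below 1 FPKM on average (0.93 ± 0.243). FPKM followed the counts loosely at this depth, since 41, 59 and 44 counts in HMC-1.1 were deposited as 0.32, 0.78 and 0.47 FPKM. On log2(FPKM + 1) the clone 1 value shrank to 0.27 and that of HMC-1.1 to 0.46.

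The 2 clones, which share a KIT genotype, differed in CD274. The log2 difference of clone 1 minus clone 2 was -1.3 (SE 0.22), with no overlap of the libraries. The lowest clone 2 library was 1.63 times the highest clone 1 library in CPM. Clone 2 also lay above HMC-1.1, by 0.96 (SE 0.22), a value that ranged from 0.35 to 1.16 over the alternatives. Clone 1 and HMC-1.1 overlapped, with a difference of -0.34 (SE 0.24).

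PDCD1LG2, the neighbouring gene for PD-L2, had 0 counts in 11 of the 12 libraries and 2 counts in clone 2 replicate 3. A count of 0 allows up to 3 counts in a library, so differences between groups were not detectable at this depth. The summed CD274 counts of the same groups were 144 for HMC-1.1 cells, 19 for HMC-1.2 cells, 110 for clone 1 and 290 for clone 2.

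Genes around CD274 were examined as well. Within 500 kb, 5 genes were tested. PLGRKT, whose start site lies 12.6 kb before that of CD274, was higher than among HMC-1.2 cells by 0.65 on the log2 scale in clone 1 (adjusted p = 3.7e-07) and was called there. Its values of 0.40 in clone 2 and 0.49 in HMC-1.1 were below 1.5-fold, with adjusted p of 0.00014 and 1.4e-05. JAK2, the Janus kinase downstream of the interferon gamma receptor, had log2 differences of 0.03, -0.02 and -0.07, and the largest among the remaining 3 genes was 0.23.

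**Figure D2:**
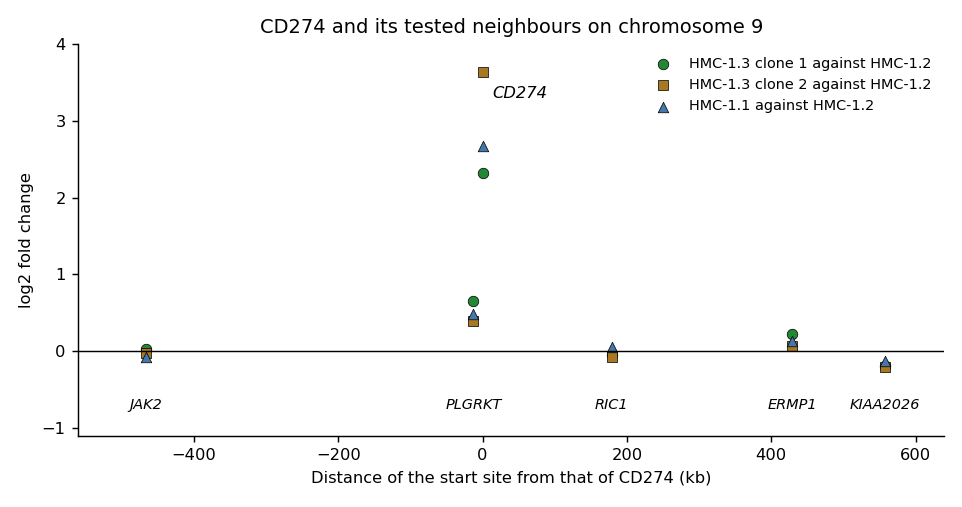
Log2 fold change of CD274 and its 5 tested neighbours, relative to HMC-1.2 cells and by the distance of the start sites in kb, for HMC-1.3 clone 1 (circles), clone 2 (squares) and HMC-1.1 (triangles). CD274 stands at 2.32 to 3.63, PLGRKT at 0.40 to 0.65, and the other genes between -0.21 and 0.23.

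CD80, the gene for B7-1, had 28, 32 and 17 counts in HMC-1.2 and 77, 57 and 91 in HMC-1.1. The 3 libraries of clone 1 had 80, 80 and 82 counts, and those of clone 2 had 229, 293 and 343. HMC-1.2 was lowest in every library and clone 2 highest, while HMC-1.1 and clone 1 overlapped. HMC-1.2 cells had a level of 0.48 ± 0.161 FPKM, HMC-1.1 cells 1.09 ± 0.225, clone 1 cells 1.5 ± 0.454 and clone 2 cells 4.36 ± 0.565 (SD, n = 3). Against HMC-1.2, CD80 rose by 1.45 on the log2 scale in clone 1 (SE 0.21, adjusted p = 1.1e-05), by 3.19 for clone 2 (SE 0.18, adjusted p = 1.9e-10), and by 1.3 among HMC-1.1 cells (SE 0.21, adjusted p = 4.9e-05). The last of these fell below 1.5-fold on log2(FPKM + 1), where it was 0.50. The clones differed from each other by -1.73 (SE 0.16, adjusted p = 9.7e-08), clone 1 being lower. Clone 1 and HMC-1.1 differed by 0.15 (95% interval -0.22 to 0.52).

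CD86, which encodes the other ligand of CD28 and CTLA-4, gave 0 to 8 counts per library. HMC-1.1 had 8, 1 and 4 counts, HMC-1.2 had 3, 2 and 0, clone 1 had 4, 3 and 1, and clone 2 had 0, 0 and 6. The groups overlapped throughout. Over the 3 libraries of clone 2, CD80 reached 865 counts and CD86 6 counts. Of the 9 tested genes within 500 kb of CD80, ADPRH, which starts 19.7 kb from it, was higher than in HMC-1.2 by 0.99 for clone 1, 0.66 for clone 2 and 0.87 for HMC-1.1 on the log2 scale, and was called in each. Among the 9, 2 genes were called for clone 1 and 1 each for clone 2 and HMC-1.1, all higher. The shares of all tested genes called were 20.0%, 16.5% and 17.6%. The other gene called for clone 1 was POPDC2 (1.01), which was at -0.18 in clone 2 and 0.35 in HMC-1.1. ADPRH and POPDC2 were singled out after their values were seen.

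ICOSLG ran in the opposite direction. Its level was 9.87, 9.67 and 10.26 FPKM in the HMC-1.2 libraries, against 3.94, 3.62 and 4.06 in HMC-1.1. Clone 1 had 4.63, 4.14 and 4.78 FPKM and clone 2 had 3.17, 3.79 and 3.56. Every HMC-1.2 library was more than 2 times as high as any other, the lowest standing 2.17 times above the highest clone 1 library in CPM. ICOSLG fell by 1.2 on the log2 scale in clone 1 (SE 0.07, adjusted p = 9.7e-11), by 1.55 for clone 2 (SE 0.07, adjusted p = 4.2e-12), and by 1.40 among HMC-1.1 cells (SE 0.07, adjusted p = 1.7e-11). Clone 1 was above clone 2 by 0.36 (adjusted p = 0.00048), less than 1.5-fold. Clone 1 and HMC-1.1 differed by 0.21 (adjusted p = 0.052).

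The ICOSLG counts are incomplete, since a second copy at chr21:5022531-5036771, which Gencode 44 marks as an artifactual duplication, took 30.1 to 33.9% of the summed counts as group means. With both copies summed, the falls were 1.18, 1.48 and 1.32 on the log2 scale for clone 1, clone 2 and HMC-1.1 cells, and the calls were unchanged.

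CD276, the B7-H3 gene, was almost level. It lay between 39.53 and 46.42 FPKM in all 12 libraries. The difference from HMC-1.2 was -0.14 for clone 1 (SE 0.03, adjusted p = 0.0017), 0.06 for clone 2 (95% interval -0.01 to 0.13), and -0.11 for HMC-1.1 cells (adjusted p = 0.012). The last of these was 0.00 on both FPKM scales. Clone 1 was below clone 2 by 0.21 (adjusted p = 8.3e-05), and no CD276 difference reached 1.5-fold.

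**Figure D3:**
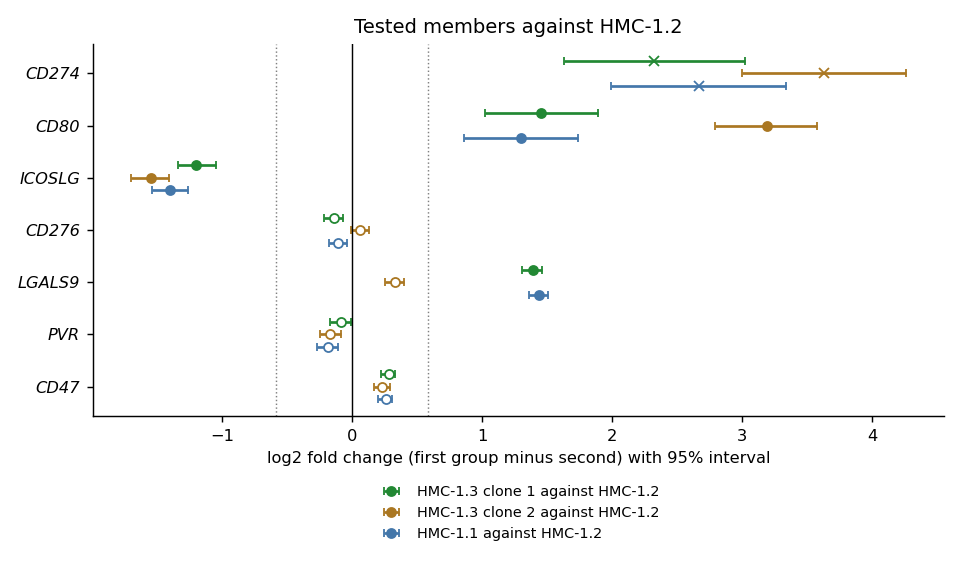
Log2 fold change of the 7 tested ligands from HMC-1.2 cells to HMC-1.3 clone 1, HMC-1.3 clone 2 and HMC-1.1, with 95% intervals. Filled points passed both the fold threshold of 1.5 (dotted lines) and the adjusted p threshold of 0.05. CD274 (crosses) is described without a test, and its intervals show only the spread between libraries. LGALS9 is at 1.39 and 1.44 in clone 1 and HMC-1.1 but at 0.33 in clone 2.

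LGALS9, the galectin-9 gene, was higher in clone 1 than in clone 2. The HMC-1.2 libraries had 79.08, 77.48 and 85.04 FPKM, and the clone 2 libraries 110.31, 106.94 and 100.4. Clone 1 had 226.61, 224.83 and 213.59 FPKM and HMC-1.1 had 233.78, 228.07 and 229.67. The libraries thus fell into a low pair of groups and a high pair, with clone 1 beside HMC-1.1 and clone 2 nearer to HMC-1.2. Against HMC-1.2, LGALS9 rose by 1.39 on the log2 scale in clone 1 (SE 0.04, adjusted p = 2.6e-15) and by 1.44 in HMC-1.1 (SE 0.04, adjusted p = 1.7e-15). In clone 2 it was higher by 0.33 (SE 0.04, adjusted p = 6.7e-07), which is below 1.5-fold. Clone 1 exceeded clone 2 by 1.06 (SE 0.03, adjusted p = 2.3e-13), the reverse of CD274 and CD80. The similar genes LGALS9B and LGALS9C had at most 4 and 2 counts in a library.

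Over the 4 groups, the difference between the highest and the lowest mean on the log2 CPM scale was 3.20 for CD274, 3.10 for CD80, 1.56 for ICOSLG and 1.43 for LGALS9. The same difference was 0.28 for CD47, 0.21 for CD276 and 0.19 for PVR. The members with the widest ranges included both the scarcest tested ligand and an abundant one.

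PVR, the nectin-like ligand of TIGIT and DNAM-1, lay between 23.18 and 28.18 FPKM in the 12 libraries and was highest in HMC-1.2. It was lower than there by 0.09 on the log2 scale in clone 1 (adjusted p = 0.056), 0.17 for clone 2 (adjusted p = 0.0013), and 0.19 for HMC-1.1 cells (adjusted p = 0.00035). CD47 was the most abundant ligand, and HMC-1.2 libraries spanned 434 to 436 CPM, those of clone 1 513 to 535, of clone 2 509 to 512 and of HMC-1.1 514 to 531. All libraries of the other groups were above those of HMC-1.2. The increase was 0.28 in clone 1 (adjusted p = 1e-07), 0.23 for clone 2 (adjusted p = 1.4e-06), and 0.26 for HMC-1.1 cells (adjusted p = 3e-07), each with an SE of 0.03 and below 1.5-fold. Over the alternatives the lowest values were 0.12, 0.18 and 0.07, respectively, against 0.26, 0.23 and 0.24 in fits without 1 library.

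Between groups that do not include HMC-1.2, ligands were called only in comparisons with clone 2. Few genes of any kind were called for clone 1 against HMC-1.1. In clone 1 against HMC-1.1, that is D816V-KIT alone against V560G-KIT alone, 0 of the 6 ligands were called by edgeR and by DESeq2, and 2 had an unadjusted p under 0.05, where 1.01% of all tested genes were called (0.671% higher and 0.339% lower). In clone 2 against HMC-1.1, CD80 was higher by 1.88 (SE 0.16, adjusted p = 6.7e-08) and LGALS9 lower by 1.11 (SE 0.03, adjusted p = 2e-13), so that 2 of 6 were called against 8.19% of all genes (3.04% higher and 5.15% lower). In clone 1 against clone 2, 2 were also called, LGALS9 higher and CD80 lower, against 12.6% of all genes (8.38% higher and 4.25% lower). By adjusted p alone, 0, 3 and 4 of the 6 passed, against 18.7%, 36.0% and 50.2% of all genes.

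**Figure D4:**
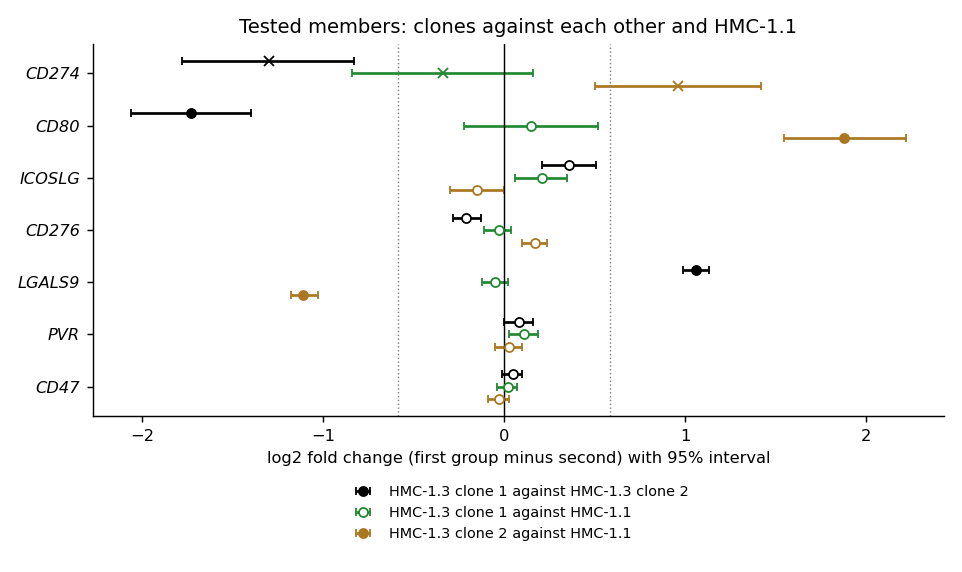
Log2 fold change of the 7 tested ligands for clone 1 against clone 2, clone 1 against HMC-1.1 and clone 2 against HMC-1.1, with 95% intervals. Filled points passed both the fold threshold of 1.5 (dotted lines) and the adjusted p threshold of 0.05. CD274 (crosses) is described without a test, and its intervals show only the spread between libraries. In clone 1 against HMC-1.1 every other point is open, and in the other comparisons CD80 and LGALS9 are filled.

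The order of the groups was the same in FPKM and CPM for 5 of the 7 tested ligands. CD274 ran from HMC-1.2 through clone 1 and HMC-1.1 to clone 2, and CD80 from HMC-1.2 through HMC-1.1 and clone 1 to clone 2. In both, the libraries of the middle neighbours overlapped, and for CD80 they did not differ beyond their spread (adjusted p = 0.6). ICOSLG ran from clone 2 through HMC-1.1 and clone 1 to HMC-1.2, and only the step to HMC-1.2 passed the test. LGALS9 ran from HMC-1.2 through clone 2 and clone 1 to HMC-1.1, and its last step did not pass (adjusted p = 0.37). For PVR no step between neighbours passed, and the order of CD276 and of CD47 depended on the scale.

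Genes whose log2 CPM followed a ligand most closely over the 12 libraries were sought among 13115 genes. For CD274 these were ARG2, TMEM63A and CTR9 (Pearson r of 0.985, 0.985 and 0.984). KLHL4, FSCN1 and CLU came closest to CD80 (0.991, 0.985 and 0.983), and CRIP2, RORB and RASGRP2 to ICOSLG (0.992, 0.992 and 0.990). The libraries fall into 4 groups of 3, so that these values describe group patterns and were not tested. ARG2, which encodes a mitochondrial arginase, averaged 6.49 FPKM among HMC-1.2 cells, 10.9 for clone 1, 11.7 for HMC-1.1 cells and 13.6 for clone 2, the order of CD274 over a smaller range.

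Genes for receptors and other binding partners of these ligands were mostly at low counts. Of 13 such genes, 5 passed the low-count filter, and PDCD1, CD28, CTLA4, ICOS, TMIGD2, TIGIT, CD96 and SIRPG did not. In each comparison with HMC-1.2, 2 of these genes were called higher and 2 lower, 4 of 5 where 20.0%, 16.5% and 17.6% of all tested genes were called for clone 1, clone 2 and HMC-1.1 cells. The median log2 fold change of the 5 was 0.47 for clone 1, 0.54 for clone 2, and 0.08 for HMC-1.1 cells, where that of all genes was 0.01, 0.00 and 0.01. Each median of the 5 was the value of HAVCR2, named after its values were seen, which had 1 to 13 counts per library. Its adjusted p was 0.5, 0.46 and 0.93, so these medians do not describe a shift of the list. SIRPA, the receptor of CD47, averaged 2.17 FPKM among HMC-1.2 cells, 0.843 for clone 1, 0.59 for clone 2, and 0.623 for HMC-1.1 cells, and fell in all 3 (log2 changes of -1.42, -1.90 and -1.80, adjusted p of 4.6e-08, 2e-09 and 3.7e-09). CD226, which encodes the PVR receptor DNAM-1, rose from 0.623 FPKM to 0.963, 0.937 and 0.93 (log2 changes of 0.68, 0.99 and 0.86, adjusted p of 0.001, 3e-05 and 0.00012).

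The other 2 called genes of that list, RGMB and THBS1, named after their values were seen, moved in opposite directions in the clones. RGMB, a binding partner of PD-L2 and a bone morphogenetic protein co-receptor, had 38 to 59 counts per HMC-1.2 library, 130 to 162 per clone 1 library and 16 to 34 per clone 2 library. It rose by 1.49 in clone 1 and fell by 1.28 in clone 2 on the log2 scale, and the clones differed by 2.77 (SE 0.21, adjusted p = 1.1e-08). THBS1, the matrix protein thrombospondin-1 and a ligand of CD47, had 108 to 138 counts per HMC-1.2 library and 59 to 72 per clone 1 library, and 237, 331 and 904 in clone 2. It fell by 1.09 in clone 1 and rose by 1.70 in clone 2, and the clones differed by -2.79 (SE 0.32, adjusted p = 1.8e-06). The third library of clone 2 stood apart in this gene, but the lowest clone 2 library was still above every other group.

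Further checkpoint and costimulatory ligands and nectins showed no common direction. Of 27 genes, 21 were tested, and against HMC-1.2 5 were called higher and 5 lower for clone 1, 3 and 3 for clone 2, and 4 and 7 for HMC-1.1 cells. These were 10, 6 and 11 of the 21, where 20.0%, 16.5% and 17.6% of all tested genes were called. Their median log2 fold change was 0.01, 0.05 and -0.11, respectively. Some called genes passed the low-count filter only through groups where they were higher, so the counts are a description. Among them were LGALS3 and, named after their values were seen, CD24 and HHLA2. CD24 averaged 0.726 CPM in HMC-1.2 and 0.0444 in HMC-1.1, and HHLA2 0.108 in HMC-1.2 and 0.415 in clone 1. LGALS1, the galectin-1 gene, was at 1160 FPKM among HMC-1.2 cells and fell to 695 for clone 1, 692 for clone 2, and 692 for HMC-1.1 cells, opposite to LGALS9 (log2 change of -0.81 in clone 1, adjusted p = 1.5e-09, and -0.83 in clone 2, adjusted p = 1.3e-09). LGALS3, the galectin-3 gene, had 33 to 45 counts in the HMC-1.2 libraries and 0 to 2 counts in every other library. TNFRSF14 (HVEM), the ligand of BTLA, and CD48, the ligand of 2B4, rose in both clones, by 0.96 and 0.74 and by 0.85 and 0.61 on the log2 scale. Both were also called higher in HMC-1.1 than in HMC-1.2, by 0.64 and 0.67, respectively.

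Few known regulators of CD274 differed by over 1.5-fold. All 18 were tested, and for clone 1 as for HMC-1.1 cells none was called higher and only IFNGR2, a chain of the interferon gamma receptor, was called lower (-0.71 in each). In clone 2, 0 of 18 were called by edgeR. By adjusted p alone, 12 passed for clone 1, 11 for clone 2 and 10 for HMC-1.1 cells. The shares of all tested genes were 20.0%, 16.5% and 17.6% by both thresholds and 59.4%, 48.5% and 53.7% by adjusted p alone. The median log2 fold change was 0.02 for clone 1, 0.08 for clone 2 and 0.03 for HMC-1.1 cells. IFNGR2, IRF1 and CMTM6 were singled out after their values were seen. IRF1, a transcription factor of the interferon response, differed from HMC-1.2 by 0.15 for clone 1 (adjusted p = 0.0083), 0.58 for clone 2 (adjusted p = 7.7e-09), and 0.08 for HMC-1.1 cells (adjusted p = 0.15) on the log2 scale. CMTM6, which stabilises PD-L1 at the cell surface, differed by -0.22, -0.01 and -0.19, and QPCTL, which modifies CD47 for SIRPα binding and was listed on its own, by -0.15, -0.34 and -0.16.

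**Figure D5:**
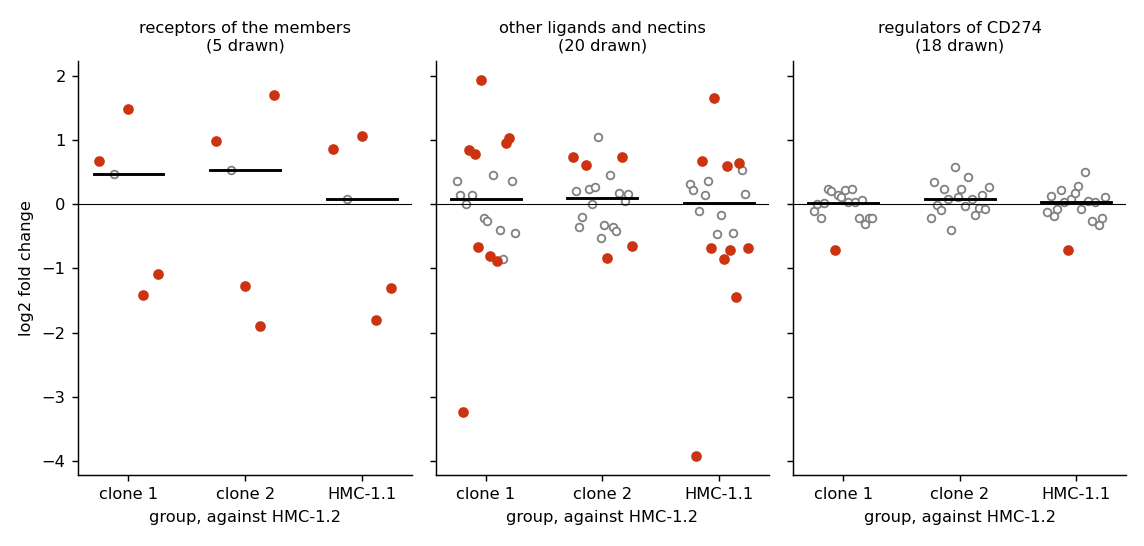
Log2 fold change of tested receptors of the ligands, further checkpoint ligands and nectins, and regulators of CD274, relative to HMC-1.2 cells, in HMC-1.3 clone 1, clone 2 and HMC-1.1. Red points were called, open points were not, lines are medians of the genes drawn, and LGALS3 is left out because its counts outside HMC-1.2 were 0 to 2; regulators of CD274 stay between -0.71 and 0.58.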

How the data were processed

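The authors deposited expected counts, unnormalized gene-level estimates made per the study's methods from read pairs trimmed with Cutadapt (version 2.10), aligned to hg38 with STAR (2.5.3) in 2 passes and quantified with RSEM (1.3.0); PCR duplicates were marked with Picard. The FPKM values deposited by the authors are fragments scaled for length and library size, to 2 decimals. No step before these tables was rerun, so alignment, counting and the KIT genotype were not checked. Gene positions were taken from Gencode 44 by identifier, since 99% of the identifiers but only 58.2% of their versions are in it. Coordinates and promoters are on GRCh38.

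Expected counts were rounded to whole numbers. All 12 libraries were fitted with the quasi-likelihood test of edgeR (4.0.16, R 4.3.3) with TMM scaling, filterByExpr and a term for group, and p-values were adjusted by Benjamini and Hochberg over 15944 genes per comparison. CPM use TMM-scaled library sizes. Depth and counting error limit CD274, CD80, CD86 and PDCD1LG2, which have few counts. The scripts were tested on simulated data. Alternatives were DESeq2 (1.42.0), other filters, the groups compared alone, a block for replicate number, a covariate for the 3 libraries described as resent, glmTreat, limma (3.58.1) on log2(FPKM + 1) and log2(FPKM + 0.1), and fits without 1 library. Summing ICOSLG with its duplicate was added after the data were seen. Libraries of a group differed by more than counting noise, with a chi-square of 2.92 to 8.22 per degree of freedom across genes averaging 10 or more counts, so none was counted as a repeat.

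The ligands, the other gene lists and the alternatives were chosen with earlier results of these data known. By rule, the text names the 9 ligands, the list genes called in both clones in the same direction (at most 4 per list), tested neighbours of CD274 and the 3 genes most like CD274, CD80 and ICOSLG; KIT and the cell type markers check the labels, QPCTL was listed on its own, and any other name is stated to be chosen after its values were seen.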

Additional observations from a re-analysis of the deposited data

Results flagged for a closer look

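Both clones were compared with the same HMC-1.2 libraries. The difference of clone 1 minus clone 2 is therefore itself the test of whether their changes differ. Of the 6 ligands tested 2 were called, and of the 5 tested genes for their binding partners 2. Among all tested genes, 12.6% were called. CD80 was lower in clone 1 (-1.73 on the log2 scale, adjusted p = 9.7e-08) and LGALS9 was higher there (1.06, adjusted p = 2.3e-13). RGMB (2.77, adjusted p = 1.1e-08) and THBS1 (-2.79, adjusted p = 1.8e-06) moved in opposite directions from HMC-1.2 in the clones. The clone 2 libraries of THBS1 had 6.93, 8.49 and 20.9 CPM. All 4 differences are between single clones, so that the cause was not tested.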

How the results depend on the processing

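The number of ligands called stayed within 1.5 times in all 6 comparisons and kept the same value in all leave-one-out fits. The one change was for HMC-1.1 cells against HMC-1.2, with 2 called in place of 3 on log2(FPKM + 1), where CD80 was at 0.50. On that scale the CD274 difference, which is described without a test, was smaller in clone 1 (0.27) and HMC-1.1 (0.46) against HMC-1.2, in clone 2 against HMC-1.1 (0.35) and between the clones (-0.54). The added constant is larger than every group mean of CD274. Sign changes concerned small differences that were not called. CD276 of HMC-1.1 cells against HMC-1.2 was 0.00 on both FPKM scales, CD47 was 0.11 and 0.12 in clone 2 against HMC-1.1 and -0.06 on both between the clones, and PVR in clone 2 against HMC-1.1 ranged from -0.01 (without HMC-1.1 replicate 3) to 0.05. The order of the 4 group means of 7 ligands was kept for 5 in CPM and for 6 or 7 without 1 library.

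The replicate block left the 6 counts of called ligands at 3, 2, 3, 0, 2 and 2. Replicate numbers did not pair the libraries, since deviations of same-numbered libraries correlated at -0.04 to 0.10 over 18 pairs. Over all genes, clone 1 against HMC-1.2 gave 3193 calls with edgeR, 1932 with glmTreat and 1902 on log2(FPKM + 1), and clone 1 against HMC-1.1 gave 161, 9 and 61, with 81 by DESeq2 and 107 without HMC-1.3 clone 1 replicate 2. Clone 2 gave 2630, 1612 and 1453 against HMC-1.2 and 1306, 552 and 566 against HMC-1.1; HMC-1.1 against HMC-1.2 gave 2803, 1618 and 1514, and the clones 2013, 837 and 969.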
